A study of Mus musculus with 8 samples.

Results

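The genes described here are 39 components of TGF-beta and BMP signalling, out of 53787 genes in the deposited count tables. They were chosen by name for their role in the pathway, with earlier results of these data known. They comprise 8 ligands, the protease Bmp1, 4 latent TGF-beta binding proteins, 8 receptors, 3 co-receptors or pseudoreceptors, 4 secreted antagonists or follistatin-family proteins, 7 Smads, 2 Ski corepressors and 2 Smurf ubiquitin ligases. All 39 were in the tables of both cell lines. Their levels were measured by total RNA-seq in 8 libraries of mouse cells in 4 groups of 2, with TCF-1, the transcription factor encoded by Tcf7, gained in one line and lost in the other. TCF1 induced 3T3 cells (genotype Tcf7 induced) were set against normal 3T3 cells (wild type, untreated); NIH-3T3 is an embryonic fibroblast line. The file headers name doxycycline only for the induced cells, and they give 72 hours, Cas9, an empty LRG21 vector and pIND21 for all 4 of the 3T3 libraries, so doxycycline and TCF-1 itself cannot be told apart. TCF-1 KO Scid.adh cells (Tcf7-/-) were set against Scid.adh cells carrying an empty vector (wild type); Scid.adh is a T cell leukaemia line that resembles DN3 thymocytes, an early stage before a T cell receptor is complete. The labels say neither whether the knockout is a clone or a pool nor whether both libraries of a group were grown apart. The p-values therefore reflect the scatter of these libraries alone, and that scatter may be technical.

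TGF-beta, activin and BMP dimers bring together type I and type II serine/threonine kinase receptors. The type I receptor then phosphorylates receptor-activated Smads (Smad2 and Smad3 for TGF-beta and activin, Smad1 and Smad5 for BMP), which enter the nucleus with Smad4. TGF-beta is secreted in a latent form that latent TGF-beta binding proteins tether to fibrillin-rich matrix. In fibroblasts the pathway is known for matrix production, and in developing thymocytes for control of proliferation and differentiation.

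Totals were 16857868 and 13850213 counts in the TCF1 induced 3T3 libraries and 16174002 and 17523677 in normal 3T3. They were 7740198 and 8217933 in TCF-1 KO Scid.adh and 10392402 and 9847239 in empty vector Scid.adh. Tcf7 had 946 and 972 CPM (counts scaled to library size with TMM factors) in induced 3T3, against 14.5 and 14.6 CPM in normal 3T3, a log2 fold change of 6.04. In Scid.adh it had 646 and 624 CPM in TCF-1 KO cells, against 1318 and 1325 CPM in empty vector cells, so Tcf7 RNA fell by 1.06 on the log2 scale but remained abundant; the edited part is not given in the sources used here, so this level says nothing of the protein. The 12 fibroblast markers summed to 18553 and 18419 CPM in induced 3T3, against 16858 and 16512 CPM in normal 3T3, and the 13 T lineage markers to 12.5 CPM or less in every 3T3 library. In Scid.adh the T lineage markers summed to 4900 and 5040 CPM in TCF-1 KO cells, against 5649 and 5595 CPM in empty vector cells, with Rag2 under 1 CPM throughout. The fibroblast list summed to 417 and 384 CPM in TCF-1 KO cells, against 681 and 721 CPM in empty vector cells; Thy1, also a T cell gene, held most of it. Of the 12 fibroblast markers, 6 were tested in Scid.adh. Thy1 and Pdgfrb (4.38 and 3.80 CPM in TCF-1 KO cells, against 120 and 125 CPM in empty vector cells) fell. Col1a1, Col1a2, Col5a1 and Pdgfra rose at 8.27 CPM or less, and Dcn and Lum were at or near 0. Col1a1, Col1a2 and Pdgfra had enough counts to be tested only through the TCF-1 KO libraries. The rise of these 3 is therefore not independent of the filter on counts. Genes with few reads were mostly higher in TCF-1 KO cells, as given below.

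The upstream sequences of 2 ligand genes are shown for orientation. Tgfb2 was lower in induced 3T3, and Tgfb1 did not pass the test there but was lower in TCF-1 KO Scid.adh. Each is the 250 bases before the RefSeq start in GRCm38.p6, on the gene's strand. The motifs searched on both strands were the TCF/LEF core CTTTGAT, its variant CTTTGTT, the Smad-binding CAGACA and the palindrome GGCGCC bound by Smads; capitals mark a match, and no 2 matches overlap.
Tgfb2, chr1:186705990-186706239, minus strand: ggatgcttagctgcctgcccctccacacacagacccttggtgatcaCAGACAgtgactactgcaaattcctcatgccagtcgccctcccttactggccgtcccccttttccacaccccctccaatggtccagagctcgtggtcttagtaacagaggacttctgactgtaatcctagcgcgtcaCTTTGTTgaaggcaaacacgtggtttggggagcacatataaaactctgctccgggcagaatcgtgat
Tgfb1, chr7:25686752-25687001, plus strand: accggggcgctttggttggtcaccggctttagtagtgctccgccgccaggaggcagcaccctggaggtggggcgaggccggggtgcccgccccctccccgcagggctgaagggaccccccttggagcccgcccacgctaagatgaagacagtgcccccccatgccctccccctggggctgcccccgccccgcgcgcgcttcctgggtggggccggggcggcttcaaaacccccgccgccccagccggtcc
The Tgfb2 window held CTTTGTT starting at -67 and CAGACA starting at -204 relative to the RefSeq start. The Tgfb1 window, at 75.2% G and C against 53.6% for Tgfb2, held none of these motifs. The windows of Acvr1 (lower in induced 3T3, log2 fold change -0.87) and Acvr1b (higher there, 0.69) held none either. Genes that changed therefore had windows with and without a match. Of the 39 genes, 29 had an entry and together 35 promoter windows. CTTTGAT was in 0 of the 35, against 3.21% of all 32851 promoter windows of this length. CTTTGTT was in 2 (Inhba and Tgfb2; 5.03% of all), CAGACA in 5 (Fstl3, Ltbp1, Smurf1, Tgfb2 and Tgfbr1; 17.1% of all) and GGCGCC in 9 (among them Tgfbr1, Ski and Smad5; 9.59% of all). A match describes letters and is not a binding site.

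The lines expressed different parts of the pathway, set side by side here from tables that were normalised separately. Per kb of exon, which allows levels of different genes to be compared, 32 of the 39 genes reached 1 CPM per kb in induced 3T3 and 32 in normal 3T3. In Scid.adh, 14 reached it in TCF-1 KO cells and 11 in empty vector cells. In normal 3T3 the order was led by Fstl1, a secreted follistatin-like glycoprotein, at 193 and 194 CPM per kb, then by Tgfbr3 (betaglycan, a co-receptor that presents TGF-beta) at 86.8 and 84.6 and Ltbp2 at 74.0 and 72.3. Ltbp3 (45.5 and 43.9), Ski (43.5 and 43.2), Smad7 (36.5 and 35.6) and Smad4 (33.8 and 35.5) followed, and the order ended with Grem1, Eng, Bmp2 and Bmp4, all under 0.5 CPM per kb. In that order Ltbp3 and Ski were neighbours whose libraries did not overlap by level, as were Smad7 and Smad4; Smurf1 and Smurf2, Tgfb1 and Skil, and Inhba and Acvr1 did overlap. In empty vector Scid.adh the order was led by the signal transducers: Smad3 at 30.4 and 28.1 CPM per kb, Tgfbr1 at 28.8 and 27.3, Ski at 26.5 and 24.1 and Smad4 at 23.7 and 25.0. Smad3 and Tgfbr1 overlapped, as did Ski and Smad4. Tgfbr2, the type II receptor that TGF-beta needs, had 6 and 5 counts in TCF-1 KO Scid.adh and 1 and 0 counts in empty vector Scid.adh, so it was close to the 3 counts (0.302 and 0.320 CPM in the empty vector libraries) that a count of 0 allows.

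In 3T3 cells the comparison asks what changed with induced TCF-1. Of the 39 genes, 38 had enough counts to test; 8 rose, 9 fell and 21 did not pass (edgeR quasi-likelihood test, Benjamini-Hochberg adjusted over 18185 genes, adjusted p under 0.05). The share called was 44.7%, beside 36.8% of all genes tested, 18.5% higher and 18.3% lower. The median log2 fold change of the 38 was 0.03, beside 0.00037 over all genes tested, and -0.017 without the second induced library. All 17 genes called had libraries that did not overlap between the groups. So did several that did not pass, among them Tgfb1, Ltbp3 and Smad2, so this adds nothing to the test. The share over all genes was not counted. In bulk RNA, more cells expressing a gene and more RNA per cell cannot be told apart. The genes that rose were the secreted activin antagonist Fst, the protease Bmp1, the receptors Acvr1b and Tgfbr2, the co-receptors Tgfbr3 and Eng, and the matrix-associated Ltbp2 and Fstl1. Those that fell were the ligands Tgfb2 and Tgfb3, Ltbp1, the receptor Acvr1, the BMP antagonist Grem1, and Smad1, Smad3, Smad4 and Smad7. Bmp4 was not tested, with 1 and 1 counts in induced 3T3 against 3 and 3 in normal 3T3.

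Among the ligands, Tgfb2 (chr1:186622792-186705989) had 44.8 and 43.3 CPM in induced 3T3, against 74.9 and 75.0 CPM in normal 3T3. It was lower in both induced libraries (log2 fold change -0.77, SE 0.06, adjusted p = 3.29e-15). Tgfb3 had 60.8 and 59.5 CPM in induced 3T3, against 81.1 and 78.4 CPM in normal 3T3 (-0.41, SE 0.05, adjusted p = 3.07e-08). The third isoform did not pass: Tgfb1 had 49.9 and 47.9 CPM in induced 3T3, against 50.6 and 51.2 CPM in normal 3T3, a log2 fold change of -0.05 (SE 0.06). Inhba, the subunit of activin A, had 57.7 and 63.1 CPM in induced 3T3, against 60.2 and 58.5 CPM in normal 3T3, and its libraries overlapped. Bmp2, Bmp6 and Inhbb were at 4.42 CPM or less in every library and did not pass.

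Bmp1 is a tolloid protease that cleaves procollagens and the BMP antagonist chordin. It had 195 and 191 CPM in induced 3T3, against 111 and 108 CPM in normal 3T3 (log2 fold change 0.82, SE 0.04, adjusted p = 1.3e-20). The 4 latent TGF-beta binding proteins split. Ltbp2, which binds fibrillin but not latent TGF-beta, had 781 and 742 CPM in induced 3T3, against 605 and 592 CPM in normal 3T3 (0.35, SE 0.03, adjusted p = 2.3e-12). Ltbp1, which does tether latent TGF-beta, had 235 and 228 CPM in induced 3T3, against 319 and 323 CPM in normal 3T3 (-0.47, SE 0.04, adjusted p = 9.94e-15). Ltbp3 and Ltbp4 did not pass, with log2 fold changes of 0.07 and 0.16.

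The type I receptors Acvr1 and Acvr1b moved in opposite directions. Acvr1 (ALK2, a receptor for BMPs; chr2:58388644-58567157) had 23.8 and 24.5 CPM in induced 3T3, against 45.0 and 43.3 CPM in normal 3T3 (log2 fold change -0.87, SE 0.07, adjusted p = 6.87e-14). Acvr1b (ALK4, the activin type I receptor; chr15:101174067-101213684) had 49.9 and 49.4 CPM in induced 3T3, against 30.1 and 31.6 CPM in normal 3T3 (0.69, SE 0.07, adjusted p = 8.16e-12). The difference between these 2 changes was not tested. Tgfbr2 had 149.8 and 149.4 CPM in induced 3T3, against 134 and 130 CPM in normal 3T3 (0.19, SE 0.04, adjusted p = 0.000532); it did not pass without the second normal library (0.16). The other 5 receptors, Tgfbr1, Acvr2a, Acvr2b, Bmpr1a and Bmpr2, did not pass and had log2 fold changes between 0.01 and 0.08.

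Of the co-receptors, Tgfbr3 had 678 and 674 CPM in induced 3T3, against 568 and 553 CPM in normal 3T3 (log2 fold change 0.27, SE 0.03, adjusted p = 1.56e-09). Eng (endoglin, best known in endothelium) had 2.59 and 1.73 CPM in induced 3T3, against 1.44 and 0.689 CPM in normal 3T3 (1.06, SE 0.32, adjusted p = 0.00653). The Eng call rested on few reads: the log2 fold change was 0.61 without the second normal library and 0.72 without the first induced library, and it passed in neither. Bambi, a pseudoreceptor without a kinase domain, had 3.19 CPM or less in every library and did not pass.

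The antagonists showed both ends of the range in 3T3. Fst, follistatin, which binds and neutralises activins, had 28.6 and 27.5 CPM in induced 3T3, against 10.3 and 10.2 CPM in normal 3T3 (log2 fold change 1.45, SE 0.10, adjusted p = 3.12e-17). Grem1, gremlin, which binds BMPs, had 5 and 5 counts (0.294 and 0.360 CPM) in induced 3T3, against 29 and 31 counts (1.81 and 1.78 CPM) in normal 3T3 (-2.44, SE 0.42, adjusted p = 4.37e-06). Both were well separated, but Grem1 was scarce even in normal 3T3 and had enough counts to be tested only through those libraries. Fstl1 had 1168 and 1173 CPM in induced 3T3, against 951 and 951 CPM in normal 3T3 (0.30, SE 0.03, adjusted p = 1.41e-11). Fstl3 did not pass (-0.14, SE 0.06).

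Of the 7 Smads, 0 rose and 4 fell in 3T3, beside 18.5% higher and 18.3% lower of all genes tested. Smad7, the inhibitory Smad that recruits Smurf ligases to the receptor, had 103 and 103 CPM in induced 3T3, against 165 and 161 CPM in normal 3T3 (log2 fold change -0.66, SE 0.04, adjusted p = 6.16e-17). Smad1 had 67.3 and 68.0 CPM in induced 3T3, against 89.3 and 86.9 CPM in normal 3T3 (-0.38, SE 0.05, adjusted p = 5.75e-08). Those 2 were clear of the spread between libraries; the changes of the next 2 were small. Smad3 had 123 and 118 CPM in induced 3T3, against 136 and 134 CPM in normal 3T3 (-0.16, SE 0.04, adjusted p = 0.00323), and did not pass without the first (-0.15) or the second (-0.17) normal library. Smad4 had 114 and 121 CPM in induced 3T3, against 125 and 132 CPM in normal 3T3 (-0.13, SE 0.05, adjusted p = 0.0265), and did not pass without the first (-0.16) or the second (-0.09) normal library or the first induced library (-0.08), or with the loess correction (-0.095), which is described with the Scid.adh results. Smad2, Smad5 and Smad6 did not pass. The corepressors Ski and Skil and the ligases Smurf1 and Smurf2 did not pass either, with log2 fold changes between -0.10 and 0.04.

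**Figure D1:**
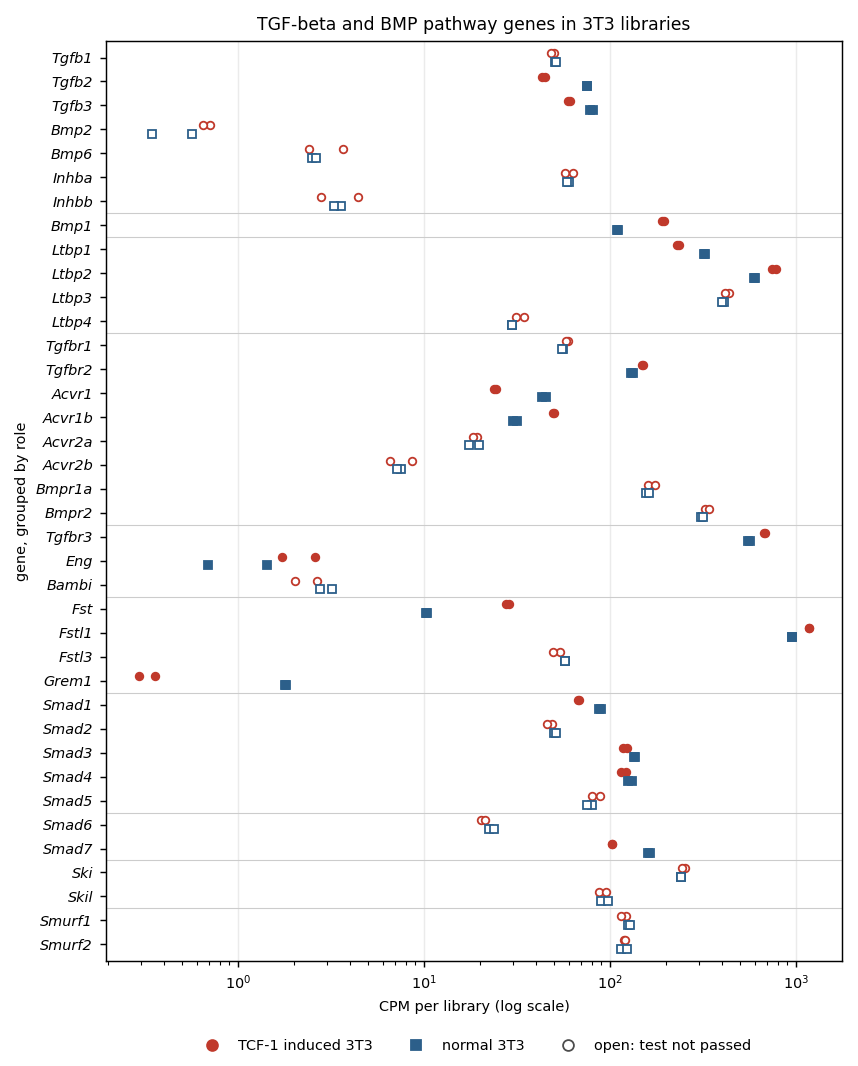
CPM per library on a log axis for the 38 genes tested in 3T3, ordered by role, with circles for the 2 TCF1 induced libraries and squares for the 2 normal libraries; open symbols did not pass the test. Fst and Bmp1 lie to the right in induced cells and Grem1, Acvr1, Tgfb2 and Smad7 to the left.

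Other genes of the pathway were read from 7 lists. Their counts in 3T3 stand beside 18.5% higher and 18.3% lower of all genes tested. Of 16 other antagonists and modulators, 10 were tested in 3T3, 8 rose and 0 fell, with a median log2 fold change of 0.22, or 0.14 without the second induced library. Chrd, chordin, which sequesters BMPs, had 7.42 and 8.29 CPM in induced 3T3, against 4.63 and 3.91 CPM in normal 3T3 (0.88, adjusted p = 1.05e-05), and Nbl1, a gremlin relative, had 57.4 and 52.2 CPM in induced 3T3, against 32.2 and 33.1 CPM in normal 3T3 (0.75, adjusted p = 4.64e-13). Chrdl1, a chordin relative, had 31 and 27 counts in induced 3T3, against 2 and 2 in normal 3T3, a ratio of 15.7 with a 95% exact counting interval of 5.81 to 59.5. Dcn, decorin, a matrix proteoglycan that binds TGF-beta, had a log2 fold change of 0.29. So the secreted modulators that were called all rose, while Grem1 among the 39 fell. Chrdl1 had enough counts to be tested only through the induced libraries, and Grem1 only through the normal ones. Neither change is therefore independent of the filter on counts.

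Of 10 genes for latency and activation of TGF-beta, 8 were tested in 3T3, 4 rose and 0 fell (median 0.25). Fbn1, the fibrillin to which latent complexes attach, had 691 and 682 CPM in induced 3T3, against 304 and 310 CPM in normal 3T3 (log2 fold change 1.16, adjusted p = 2.09e-30). Lrrc32, also called GARP, which displays latent TGF-beta on the cell surface, had 2.77 and 2.02 CPM in induced 3T3, against 0.563 and 0.632 CPM in normal 3T3 (2.00, adjusted p = 3.31e-06). Both were higher in each induced library. Lrrc32 had enough counts for the test in both induced libraries but not in both normal libraries. Its rise is therefore not independent of the filter on counts. Emilin1 (0.28) and Furin (0.26), the protease that cleaves the pro-form, were the others.

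Of 23 genes known to respond to TGF-beta, 21 were tested in 3T3: 5 rose, 13 fell and 3 did not pass. Of all genes tested, 18.5% rose and 18.3% fell, and from 100 CPM up 656 rose and 921 fell of 2419. The median log2 fold change of the list was -0.37. That median was -0.24 without the second induced library, -0.25 without the second normal library and -0.22 with the loess correction. Postn, periostin, had 183 and 192 CPM in induced 3T3, against 790 and 792 CPM in normal 3T3 (-2.08, adjusted p = 5.06e-39). Bhlhe40, a transcriptional repressor, had 187 and 184 CPM in induced 3T3, against 464 and 449 CPM in normal 3T3 (-1.30, adjusted p = 1.12e-30), and Tgfbi, a secreted matrix protein, had a log2 fold change of -0.92. The list did not move as one: Timp1, an inhibitor of metalloproteinases, had 84.8 and 77.6 CPM in induced 3T3, against 43.2 and 40.6 CPM in normal 3T3 (0.96, adjusted p = 5.19e-18). Collagen genes of this list are also fibroblast markers, and their part in its count was not tested.

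Of 12 genes known to respond to BMP, 7 were tested in 3T3, 4 rose and 2 fell, with a median log2 fold change of 0.35. That median was 0.062 without the first induced library, 0.22 without the first normal library and 0.18 with no filter on low counts. Id2, an inhibitor of bHLH factors, had 24.0 and 26.7 CPM in induced 3T3, against 57.7 and 55.6 CPM in normal 3T3 (log2 fold change -1.16, adjusted p = 1.34e-18), while its relative Id3 had 50.9 and 51.7 CPM in induced 3T3, against 39.9 and 37.5 CPM in normal 3T3 (0.41, adjusted p = 9.18e-07). Family members therefore differed in direction. Atoh8 had a log2 fold change of 0.50 and Runx2 of -0.44.

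The remaining lists were smaller or mixed in 3T3. Of 24 other ligands, 11 were tested; 1 rose (Gdf5, 0.81) and 0 fell. Of 8 other receptors and co-receptors, 5 were tested, 2 rose and 1 fell: Rgma, a glycolipid-anchored BMP co-receptor, had 110 and 101 CPM in induced 3T3, against 72.4 and 75.0 CPM in normal 3T3 (0.52, adjusted p = 1.49e-11), whereas its relative Rgmb had 30.2 and 29.1 CPM in induced 3T3, against 42.8 and 42.3 CPM in normal 3T3 (-0.52, adjusted p = 3.25e-08). Of 19 other intracellular regulators, 18 were tested, 6 rose and 4 fell. Smad9, the third BMP Smad beside Smad1 and Smad5, had 13.5 and 12.5 CPM in induced 3T3, against 25.0 and 23.4 CPM in normal 3T3 (-0.89, adjusted p = 1.12e-10); the corepressor Tgif2 (0.56) and the deubiquitinases Usp4 (0.32) and Usp15 (0.26) had positive changes that passed.

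In Scid.adh cells the comparison asks what changed when Tcf7 was knocked out. Of the 39 genes, 25 were tested; 11 rose, 5 fell and 9 did not pass (same test over 11941 genes). The share called was 64.0%, beside 31.5% of all genes tested, 15.6% higher and 15.9% lower. Some of these genes could be tested only through the TCF-1 KO libraries, as given below. The median log2 fold change of the 25 was 0.37, beside -0.0039 over all genes tested. The genes that rose in TCF-1 KO cells were Acvr1, Tgfbr1 and Acvr2b among the receptors, the ligand genes Bmp2 and Inhbb, Ltbp1, Ltbp3 and Ltbp4, and Smad4, Smad6 and Smurf1. Those that fell were Tgfb1, Bmpr2, Bambi, Fstl3 and Smad3. In all 16 the libraries did not overlap between the groups. That also held for several that did not pass, among them Tgfb3, Bmp6 and Smad5, so it adds nothing to the test.

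Level matters for reading these calls, because genes with few reads were mostly higher in TCF-1 KO Scid.adh. Among the 3907 genes tested with a mean under 10 CPM, 28.3% were called higher and 5.48% lower, and their median log2 fold change was 0.39. In 3T3 the genes under 10 CPM were called higher in 9.84% and lower in 9.86%. Of the 25 tested genes among the 39, 15 averaged under 10 CPM in Scid.adh: 8 rose and 2 fell, with a median of 1.21. A gene was tested if any 2 libraries of the line had enough counts. Acvr1, Bmp2, Ltbp1, Ltbp3 and Smad6 reached that in both TCF-1 KO libraries but not in both empty vector libraries. Their rise is therefore not independent of the filter, and the counts and medians of the 39 in Scid.adh include them. The 10 of the 39 at or above 10 CPM gave 3 higher and 3 lower, with a median of 0.10. All genes tested leaned lower there. From 20 to 100 CPM 412 were higher and 720 lower of 4234, and from 100 CPM up 194 and 865 of 2612. Reads assigned to no annotated gene made up 22.3% and 25.8% of all counts in the TCF-1 KO files, against 21.3% and 21.6% in the empty vector files; their part in the low-level calls was not tested. With a loess correction for level, chosen after seeing the data, 8 of the 39 were higher and 4 lower, and the median of the 25 was 0.20.

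**Figure D2:**
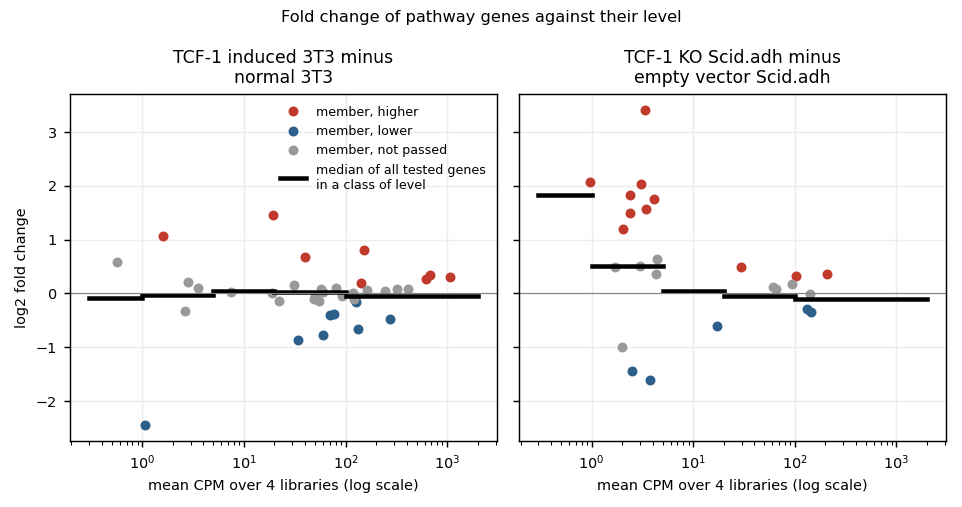
Log2 fold change against mean CPM over the 4 libraries of a line (log axis) for the tested genes of the 39, with black bars for the median of all tested genes in classes divided at 1, 5, 20 and 100 CPM; the outermost classes are open-ended. In Scid.adh the bar is at 1.83 below 1 CPM and at -0.11 from 100 CPM up, whereas in 3T3 the bars lie between -0.08 and 0.05.

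The receptors rose in 3 of 5 tested cases in Scid.adh, beside 15.6% of all genes tested and 28.3% of those under 10 CPM. Acvr1 and Acvr2b, among the 3, averaged under 10 CPM. Acvr1 had enough counts to be tested only through the TCF-1 KO libraries, so its rise is not independent of the filter. It had 7.30 and 5.10 CPM (60 and 43 counts) in TCF-1 KO cells, against 0.705 and 0.427 CPM (7 and 4 counts) in empty vector cells. That is 10.6-fold higher (log2 fold change 3.41, SE 0.42, adjusted p = 9.29e-05), and 2.40 with the loess correction. Tgfbr1 (ALK5, the TGF-beta type I receptor) had the highest level per kb of the 39 in TCF-1 KO cells, at 35.4 and 36.5 CPM per kb. It had 231 and 239 CPM in TCF-1 KO cells, against 189 and 179 CPM in empty vector cells (0.36, SE 0.06, adjusted p = 0.00137); it did not pass without the second empty vector library (0.31). Acvr2b, an activin type II receptor, had 4.5 and 2.61 CPM in TCF-1 KO cells, against 1.31 and 1.17 CPM in empty vector cells (1.5, SE 0.40, adjusted p = 0.0129); it did not pass without the second empty vector library (1.42), without the first knockout library (1.05) or with the loess correction (0.71). Bmpr2, the BMP type II receptor, had 106 and 130 CPM in TCF-1 KO cells, against 141 and 145 CPM in empty vector cells (-0.28, SE 0.09, adjusted p = 0.0262). Its call was lost without the first (-0.31) or the second (-0.28) empty vector library or the first knockout library (-0.15), and with the loess correction (-0.20). Acvr2a did not pass (0.63, SE 0.33), and Tgfbr2, Acvr1b and Bmpr1a were too low to test.

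Among the ligands, Tgfb1 (chr7:25687002-25705077) had 11.9 and 15.1 CPM in TCF-1 KO Scid.adh, against 20.4 and 20.6 CPM in empty vector Scid.adh (log2 fold change -0.60, SE 0.16, adjusted p = 0.0132). It did not pass without the first knockout library (-0.45). Inhbb, the subunit of activin B, had 5.71 and 4.51 CPM in TCF-1 KO cells, against 1.51 and 1.92 CPM in empty vector cells (1.57, SE 0.33, adjusted p = 0.00358), and 0.98 with the loess correction. Bmp2 had 1.95 and 1.19 CPM in TCF-1 KO cells, against 0.403 and 0.320 CPM in empty vector cells (2.07, SE 0.55, adjusted p = 0.0115). The Bmp2 call was not firm: it was lost without the first (2.23) or the second (1.91) empty vector library, without the first knockout library (1.66), and with the loess correction (0.62). Tgfb3 (-0.997, SE 0.41) and Bmp6 (0.51, SE 0.32) did not pass. Tgfb3 did pass with the loess correction (-1.52).

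The tested latent TGF-beta binding proteins all rose, from low levels. Of these, Ltbp1 and Ltbp3 had enough counts to be tested only through the TCF-1 KO libraries. Ltbp1 had 4.99 and 4.87 CPM in TCF-1 KO Scid.adh, against 1.31 and 1.07 CPM in empty vector Scid.adh (log2 fold change 2.03, SE 0.35, adjusted p = 0.00102). Ltbp4 had 6.08 and 6.53 CPM in TCF-1 KO cells, against 1.81 and 1.92 CPM in empty vector cells (1.75, SE 0.30, adjusted p = 0.000962). Both kept their calls with the loess correction, at 1.32 and 1.22. Ltbp3 had 2.80 and 2.97 CPM in TCF-1 KO cells, against 1.51 and 0.961 CPM in empty vector cells (1.21, SE 0.39, adjusted p = 0.0307). It lost the call without the first (1.56) or the second (0.91) empty vector library, without the first (1.24) or the second (1.17) knockout library, and with the loess correction (0.46). Bmp1 did not pass (0.50, SE 0.44).

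Fstl3 and Bambi fell, against the trend of other genes at their level. Fstl3, a follistatin-like inhibitor of activin, had 1.58 and 2.14 CPM in TCF-1 KO Scid.adh, against 6.15 and 5.23 CPM in empty vector Scid.adh (log2 fold change -1.61, SE 0.32, adjusted p = 0.00245), and -1.96 with the loess correction. Its exons overlap Prss57 on the opposite strand over 1157 of 2445 bases, so its counts are uncertain. Bambi had 1.09 and 1.54 CPM in TCF-1 KO cells, against 3.53 and 3.74 CPM in empty vector cells (-1.45, SE 0.37, adjusted p = 0.0101).

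Of the intracellular genes, Smad4 and Smad3 changed in opposite directions in Scid.adh. Smad4 had 113 and 113 CPM in TCF-1 KO cells, against 88.1 and 92.8 CPM in empty vector cells (log2 fold change 0.32, SE 0.07, adjusted p = 0.00566). Smad3 had 114 and 142 CPM in TCF-1 KO cells, against 169 and 156 CPM in empty vector cells (-0.34, SE 0.09, adjusted p = 0.0134). Without the first empty vector library neither passed, at 0.27 for Smad4 and -0.30 for Smad3, and Smad3 also did not pass with the loess correction (-0.26). Smad6, an inhibitory Smad that acts mainly on BMP signalling, had 4.5 and 2.97 CPM in TCF-1 KO cells, against 0.806 and 1.28 CPM in empty vector cells (1.83, SE 0.41, adjusted p = 0.00487), and lost the call with the loess correction (1.01). Smurf1 had 34.8 and 34.7 CPM in TCF-1 KO cells, against 24.3 and 25.2 CPM in empty vector cells (0.49, SE 0.12, adjusted p = 0.00711); without the first empty vector library it did not pass (0.45). Smad2, Smad5, Smad7, Ski and Smurf2 did not pass, with log2 fold changes between -0.02 and 0.37.

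**Figure D3:**
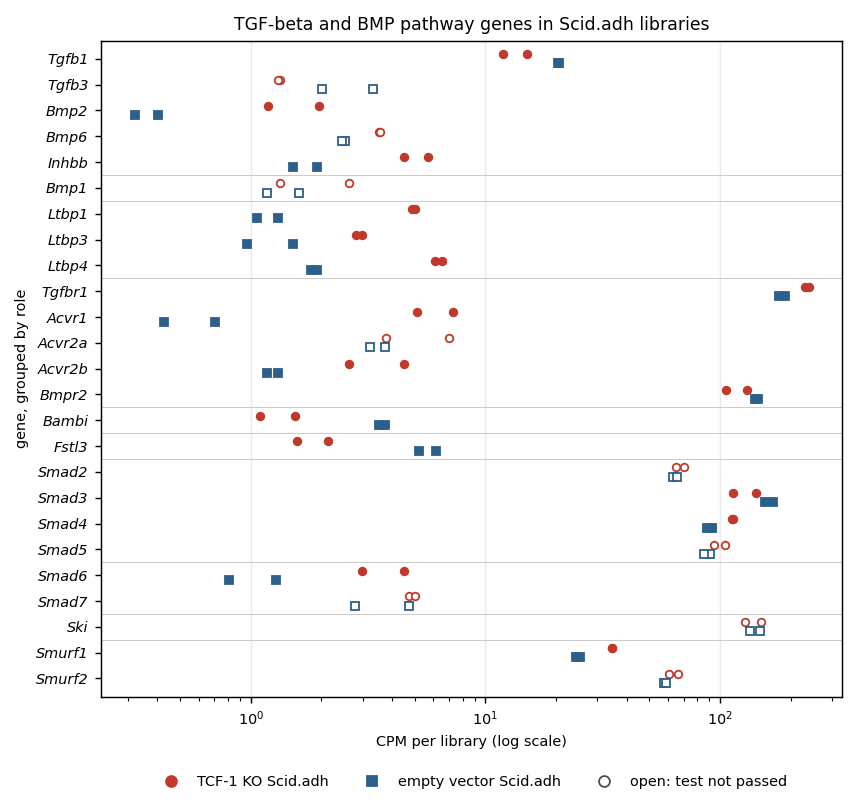
CPM per library on a log axis for the 25 genes tested in Scid.adh, with circles for the 2 TCF-1 KO libraries and squares for the 2 empty vector libraries; open symbols did not pass the test. Acvr1 is the most widely separated, and Smad3, Smad4 and Bmpr2 are high in every library with small shifts.

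The 14 genes not tested in Scid.adh were Tgfb2, Bmp4, Inhba, Ltbp2, Tgfbr2, Acvr1b, Bmpr1a, Tgfbr3, Eng, Fst, Fstl1, Grem1, Smad1 and Skil. Each had 5 to 31 counts over the 4 libraries and at most 1.19 CPM in any one. Fst, for example, had 4 and 4 counts in TCF-1 KO cells and 0 and 0 in empty vector cells. The mean was higher in TCF-1 KO cells for 11 of the 14, and no test of them was made.

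Most of the other ligands, receptors and antagonists that rose in Scid.adh were under 10 CPM. Of all genes tested there, 15.6% were higher and 15.9% lower, and under 10 CPM 28.3% and 5.48%. How many of the listed genes passed the filter only through the TCF-1 KO libraries was not counted. Of 24 other ligands, 7 were tested, 5 rose and 0 fell, with a median log2 fold change of 1.00. That median was 0.57 without the second knockout library and 0.42 with the loess correction. The one with a substantial level was Gdf11, a relative of myostatin, with 57.8 and 72.2 CPM in TCF-1 KO cells, against 39 and 39.2 CPM in empty vector cells (log2 fold change 0.73, adjusted p = 0.000503); Gdf6 (1.64), Gdf7 (1.41) and Bmp8a (1.00) were at 4.62 CPM or less. Of 8 other receptors, 3 were tested and 2 rose, Rgma (1.91) and Hjv (1.45), both low. Of 16 antagonists and modulators, 7 were tested, 4 rose and 0 fell: Crim1 (1.81), Nog (1.77) and Nbl1 (1.51) at low levels, and Twsg1, a BMP-binding protein, with 83.5 and 80.9 CPM in TCF-1 KO cells, against 61.9 and 66.5 CPM in empty vector cells (0.36, adjusted p = 0.00643).

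The activation list gave 1 call in each direction in Scid.adh. Of 10 activation genes, 5 were tested, 1 rose and 1 fell. Itgb6, the beta subunit of an integrin that activates latent TGF-beta, had 18.8 and 17.3 CPM in TCF-1 KO cells, against 36.1 and 35.3 CPM in empty vector cells (log2 fold change -0.98, adjusted p = 0.000135), and its alpha partner Itgav had 53.7 and 54.7 CPM in TCF-1 KO cells, against 40.8 and 39.6 CPM in empty vector cells (0.43, adjusted p = 0.00479). The partners changed in opposite directions. Of the 23 TGF-beta response genes, 10 were tested, 6 rose and 0 fell, beside 15.6% and 15.9% of all genes tested. Of all genes tested under 10 CPM, 28.3% were higher and 5.48% lower. Col1a1 and Col1a2, among the 6, had enough counts to be tested only through the TCF-1 KO libraries. The rise of these collagen genes is therefore not independent of the filter. The median log2 fold change of the list was 0.34. That median was 0.21 without the second empty vector library, and 1.12 with no filter and 1.16 in the fit of 8 libraries, settings that test more genes. Itgae, the CD103 integrin subunit known as a TGF-beta target in T cells, had 14.6 and 13.1 CPM in TCF-1 KO cells, against 5.34 and 3.31 CPM in empty vector cells (1.67, adjusted p = 0.000307); Junb (1.18) was next, and Col1a1 (2.22) and Col1a2 (1.78), which are fibroblast markers, were at 2.43 CPM or less. Of 12 BMP response genes, 4 were tested and 1 fell: Alpl, alkaline phosphatase, had 42.6 and 37.7 CPM in TCF-1 KO cells, against 137 and 145 CPM in empty vector cells (-1.82, adjusted p = 2.39e-08). Of 19 intracellular regulators, 17 were tested, 0 rose and 2 fell, Fkbp1a (-0.67), which binds type I receptors, and the ubiquitin ligase Wwp1 (-0.41).

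**Figure D4:**
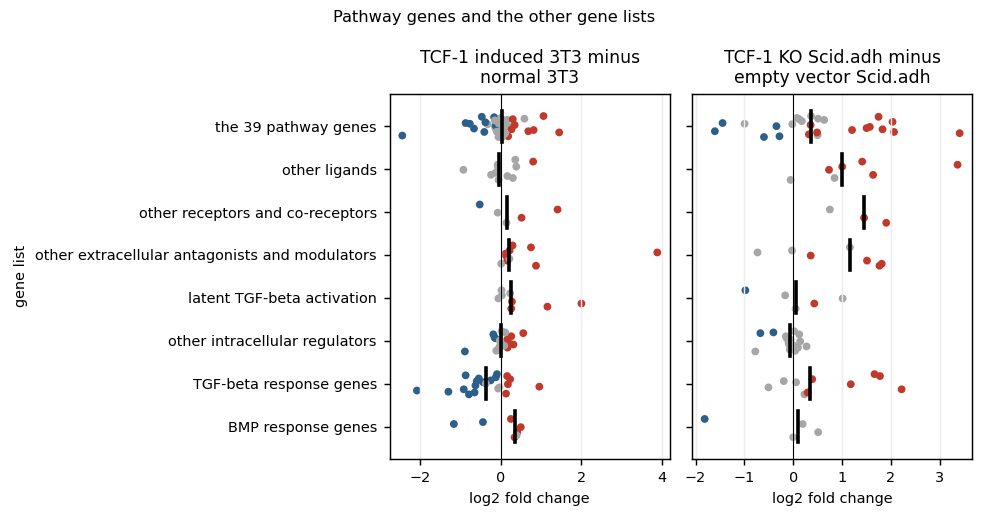
Log2 fold changes of the tested genes in each list, with 1 point per gene (red higher, blue lower, grey not passed; vertical spread within a row only separates the points) and a black bar at the list median. The TGF-beta response genes have their median at -0.37 in 3T3 and at 0.34 in Scid.adh.

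Side by side, gain of TCF-1 in fibroblasts and its loss in the T cell line gave these calls. Acvr1, Ltbp1 and Smad4 were lower in induced 3T3 and higher in TCF-1 KO Scid.adh. Smad3 was lower in both. The Smad4 and Smad3 calls were lost in some alternative runs in each line. Acvr1 and Ltbp1 were scarce in empty vector Scid.adh, and low-level genes were mostly higher in TCF-1 KO cells. How many of all genes were called in opposite directions was not counted. Another 6 genes, Acvr2a, Bmp6, Ski, Smad2, Smad5 and Smurf2, passed in neither line, and 7 that rose in 3T3 were too low to test in Scid.adh. The tables of the lines were fitted separately and the manipulations differ, so the difference between lines was not tested.

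**Figure D5:**
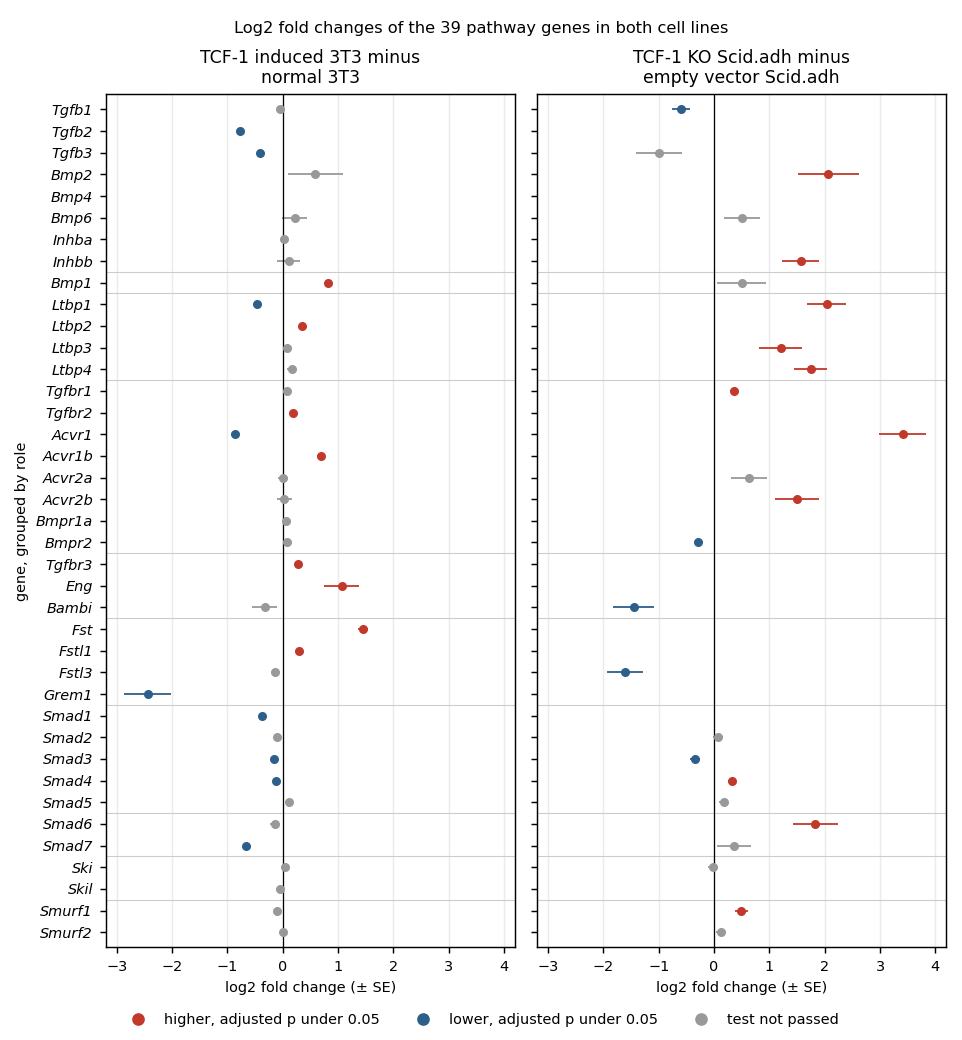
Log2 fold changes with their standard errors for the 39 genes, TCF1 induced minus normal 3T3 in one panel and TCF-1 KO minus empty vector Scid.adh in the other; genes not tested have no point. Acvr1 is at -0.87 in 3T3 and 3.41 in Scid.adh, Ltbp1 at -0.47 and 2.03, and Fst reaches 1.45 in 3T3.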

How the data were processed

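The deposited files hold raw read counts per gene, 1 file per library. Per the submitters' processing notes, the tools were STAR 2.5.0a and HTSeq 0.6.1 on GRCm38 (mm10), with roles not spelled out there; per the file headers, the 3T3 libraries were counted from merged alignments. Per the labels' protocols, libraries came from a stranded total RNA kit; the strand setting used in counting is not given in the sources used here. Exons of 11 of the 39 genes (Tgfb2, Tgfb3, Bmp4, Bmp6, Ltbp2, Ltbp3, Acvr2a, Bmpr1a, Eng, Fst and Fstl3) overlap a gene on the opposite strand, so their counts are uncertain. Symbols, positions and exon lengths came from GENCODE M21 and promoter windows from RefSeq.

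Each line was fitted alone, on 53465 genes in the 3T3 tables and 31053 in the Scid.adh tables, of which filterByExpr kept 18185 and 11941. The main test was edgeR 4.0.16's robust quasi-likelihood F-test (R 4.3.3) on group alone, with TMM factors and Benjamini-Hochberg adjustment over all genes tested in that line, called at an adjusted p under 0.05. Standard errors are the unshrunk log2 fold change over the root of F. Rows that name no gene (no feature, ambiguous) stayed out of totals and fits; reads assigned to no single gene were 2.44% and 2.20% of all counts in the TCF-1 KO Scid.adh files and 2.28% and 2.31% in the empty vector files. Replicates of a group differed beyond counting noise, so none was counted as a duplicate. Intervals and floors cover counting error only.

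On simulated data, the 3T3 fit found 70% of genes changed 1.5-fold and 90% of those changed 2-fold, and the Scid.adh fit 80% and 86%. False calls were 7 and 8. The simulation gave all genes and both groups of a line the same dispersion. The real TCF-1 KO libraries scattered more than the empty vector ones (chi-square per degree of freedom 6.96, against 1.97). These percentages therefore do not give the sensitivity in the real data. Alternatives were DESeq2 1.42.0, limma-voom (limma 3.58.1), other size factors, other filters, 1 fit of 8 libraries, a replicate block, each library left out and, added after seeing that low-level Scid.adh genes were mostly higher in TCF-1 KO cells, a loess correction (cyclic loess on log2 CPM with a prior count of 2, limma-trend). The 39 genes and the 7 lists were chosen with earlier results of these data known. Named genes are every one of the 39 that was called in a line and, per list, up to 4 called genes of largest change with a mean of at least 1 CPM.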

Additional observations from a re-analysis of the deposited data

How the results depend on the processing

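All directions and calls of the tested genes among the 39 were the same with DESeq2 size factors and with limma-voom, and 13 of the 17 calls in 3T3 and 5 of the 16 in Scid.adh (Inhbb, Ltbp1, Ltbp4, Acvr1 and Fstl3) held in every alternative run. DESeq2 called fewer genes: 1977 higher and 2035 lower in 3T3, against 3361 and 3332 in the main test, and 880 higher and 1080 lower in Scid.adh, against 1861 and 1899; of the 39 it left 2 lower in Scid.adh. DESeq2 lost the calls of Eng and Smad4 in 3T3 and of Tgfb1, Bmp2, Ltbp3, Acvr2b, Bmpr2 and Bambi in Scid.adh. Upper-quartile factors gave 2455 higher and 1215 lower genes in Scid.adh. The loess correction gave 12 higher and 8 lower of the 39 in 3T3 and 8 and 4 in Scid.adh. List medians moved as well, as given beside them; the median of the other antagonists in Scid.adh was 0.42 with the loess correction, against 1.16. The cause of these shifts was not tested.

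Leaving out 1 library at a time gave 2344 to 3391 genes higher and 2409 to 3418 lower in 3T3, and 6 to 10 and 7 to 10 of the 39. In Scid.adh it gave 1059 to 1911 higher and 1162 to 2321 lower, and 7 to 10 and 3 to 5 of the 39; without either empty vector library 7 of the 39 were higher, and without the first empty vector or first knockout library 3 were lower.

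The labels give same-numbered libraries a shared number and no batch. Their deviations correlated at 0.0124 in 3T3 and 0.00147 in Scid.adh over genes, and whether they shared a batch was not tested. A replicate block gave 3633 higher and 3577 lower genes in 3T3, with 9 and 10 of the 39, and 2028 and 2010 in Scid.adh, with 11 and 5 of the 39.

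Sign changes were limited to genes that did not pass the main test. In 3T3, Acvr2a had a log2 fold change of -0.035 with the loess correction and -0.011 in the fit of 8 libraries, Acvr2b -0.0061 with the loess correction, and Smurf2 -0.0032 when genes averaging under 1 CPM were left out and -0.018 in the fit of 8 libraries. In Scid.adh, the loess correction gave -0.0035 for Bmp6, -0.32 for Bmp1 and 0.068 for Ski, and upper-quartile factors gave 0.060 for Ski. Leaving out 1 library gave ranges across 0 in 3T3 for Acvr2a (-0.075 to 0.10), Acvr2b (-0.17 to 0.24), Smurf2 (-0.054 to 0.062), Bmp6 (-0.093 to 0.52), Inhba (-0.042 to 0.091), Inhbb (-0.28 to 0.37) and Skil (-0.10 to 0.019), and in Scid.adh for Bmp1 (-0.059 to 0.89) and Ski (-0.14 to 0.081). In Scid.adh 14 of the 39 genes had too few counts to test, and Bmp2, averaging under 1 CPM there, had no value with that filter.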
